A study of Mus musculus with 20 samples.

Results

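Cells hold several proteins that bind DNA or RNA in the cytosol, and 7 of their genes were followed here across 20 libraries of mouse macrophages. They are Ifih1, Ddx58, Dhx58, Eif2ak2, Zbp1, Aim2 and Tmem173, taken by symbol from a table of 22165 genes, and all 7 were among the 10663 genes with enough reads to test. The cells were bone marrow-derived macrophages of wild-type C57BL/6 mice, grown for 7 days with macrophage colony-stimulating factor and then stimulated with LPS and IFNg. LPS, a lipopolysaccharide of the outer membrane of Gram-negative bacteria, is sensed by TLR4. IFNg is the type II interferon and activates macrophages. Control cells (Ctrl) and cells given 250 µM dimethyl itaconate (DI; a label spells it Demethyl Itaconate) for 12 h before the stimulus were sampled at 0, 1, 2, 4 and 6 h, with 2 libraries in each of the 10 groups. The 0 h groups had no stimulus, and the labels name no vehicle for the Ctrl cells. The labels do not say whether the 2 libraries of a group came from separate mice or cultures, so their spread may be technical. The p-values below measure only that spread, estimated per gene over all 20 libraries and not from the compared pairs alone. Disagreement between the 2 replicates, as chi-square per gene, was 15.9 to 26.2 over Ctrl groups and 30.5 to 45.5 over DI groups.

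MDA5 (Ifih1) and RIG-I (Ddx58) are RNA helicases that recognise long double-stranded RNA and short RNA ends, respectively, and signal through the mitochondrial adaptor MAVS to the kinases TBK1 and IKKε and to type I interferon. LGP2 (Dhx58) is a related helicase without a signalling domain that modulates MDA5 and RIG-I. PKR (Eif2ak2) is a kinase that binds double-stranded RNA and stops translation. ZBP1 binds Z-form nucleic acids and can start cell death, AIM2 binds DNA and assembles an inflammasome, and STING (Tmem173) is the adaptor that the DNA sensor cGAS switches on. Most of these genes are known as interferon-stimulated genes: interferon receptors signal to transcription factors, STAT2 and IRF9 among them, that bind the interferon-stimulated response element (ISRE) in their promoters. In macrophages LPS leads to interferon beta, and both stimuli used here are known to induce such genes.

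The promoter letters are shown because interferons are known to act on many genes through an ISRE. Its role in the 7 genes was not tested. RefSeq promoter windows of GRCm38.p6 (250 bases before and 50 after a start site) were found for 4 of the 7, Ifih1, Ddx58, Eif2ak2 and Aim2. The start site of the Aim2 window lies 69725 bases inside the gene as annotated by GENCODE, while those of the other 3 lie within 3 bases of the annotated start. Dhx58, Zbp1 and Tmem173 had no entry. The ISRE core GAAANNGAAA, searched on both strands, was in 3 of the 4 windows, all but that of Aim2, against 3.44% of all 32851 windows of that length. Each match is given below with 10 to 12 bases to its left and 8 to 10 to its right, 5′ to 3′ on the strand of the gene, with the match in capitals.
Ifih1: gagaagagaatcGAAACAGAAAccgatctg
Ddx58: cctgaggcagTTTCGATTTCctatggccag
Eif2ak2: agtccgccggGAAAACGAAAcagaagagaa
They lie at chr2:62646206-62646235, chr4:40239804-40239833 and chr17:78882535-78882564, all on the minus strand. Counted from the start site of the window, the matches cover bases 33 to 42 in Ifih1, 3 to 12 in Ddx58 and 19 to 28 in Eif2ak2, so all 3 lie just after the start. The match of Ddx58 reads as the core on the opposite strand. With 1 mismatch allowed, 4 of the 4 windows matched, but so did 35.4% of all windows. The IFNg-activated site TTCNNNGAA was in the Eif2ak2 window alone, against 8.3% of all windows. The NF-kB consensus and the antioxidant response element core TGACNNNGC were in none of the 4 windows, against 8.46% and 12.4% of all. Overlap of a match with another motif was not removed, and a match is a string of letters, not a measured binding site.

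Libraries of DI cells held fewer genes than those of Ctrl cells at similar depth. Totals ran from 3655977 to 8938983 counts in Ctrl and from 3982073 to 6725447 in DI, but genes at 0 numbered 9301 to 10859 and 11143 to 12356, and the estimated reads per original molecule were 1.82 to 3.31 and 3.58 to 10.2. The most genes at 0 were in replicate 2 of the DI groups at 2, 4 and 6 h. Summed macrophage markers (8 of 8 measured) were 3359.6 to 5131 CPM in Ctrl and 2850.0 to 4481 in DI. For marker sums CPM are counts scaled to the library total alone, while levels of single genes are also scaled by library factors (TMM). Markers of T, NK and B cells stayed at 0.821 to 5.34 and 0 to 3.42 CPM (7 of 8 in the table, Cd3e at 0 in every library), and those of mast cells and basophils at 0.241 to 1.34 and 0 to 2.04 CPM, with Mcpt4 and Fcer1a at 0. Dendritic cell markers (5 of 5, Cd209a at 0) were 6.14 to 16.7 and 3.79 to 23.6 CPM, and neutrophil markers (7 of 7) 244 to 620.0 and 273 to 527 CPM. Most of the neutrophil sum came from S100a8 (79.2 to 246 CPM over the libraries) and S100a9 (149 to 385 CPM). Ltf reached 35.6 CPM and Camp 13.7 CPM, while Ly6g, Mpo and Elane stayed at or below 3.11 CPM. Among the dendritic cell markers Siglech had 3.79 to 23.6 CPM, and the others stayed at or below 6.02 CPM.

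The 7 genes rose after the stimulus in Ctrl cells, and most of them were lower in DI cells by 6 h. All 7 had risen by 4 h in Ctrl cells, by 2.34-fold (Ddx58) to 7.31-fold (Tmem173), where 14.7% of all tested genes were called higher. The TMM factors fell from 1.40 and 1.38 in Ctrl at 0 h to 0.791 and 0.734 at 4 h. In DI they fell from 1.37 and 1.29 to 0.868 and 0.869. Scaling to the library total alone would give smaller rises. In DI cells at 6 h, 5 of the 7 were called lower than in Ctrl cells at the same time, against 8.95% of all tested genes. Ifih1 was 3.92-fold lower, Tmem173 3.41-fold lower, Aim2 3.09-fold lower, Eif2ak2 2.49-fold lower and Dhx58 2.21-fold lower. Ddx58 and Zbp1 were not called at any time. No sensor gene was called higher in DI cells than in Ctrl cells. Within DI cells 6 of the 7 were called higher at 4 h than at 0 h, against 11.4% of all tested genes. The rise from 0 h was not called different between treatments for any of the 7 at any time, where 0.253 to 1.55% of all tested genes were.

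**Figure D1:**
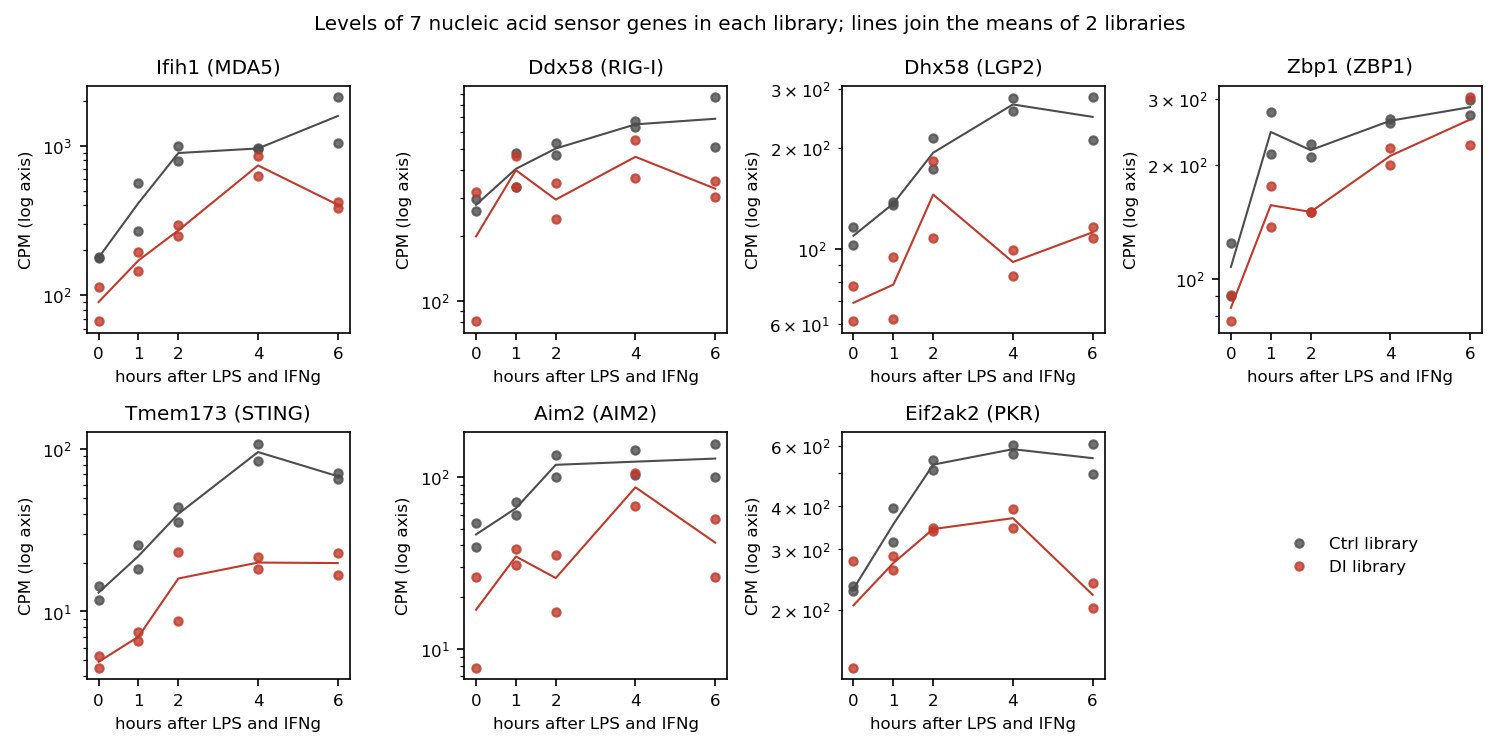
Levels of the 7 genes in each of the 20 libraries, in CPM on a log axis, against hours after LPS and IFNg. Points are libraries (grey Ctrl, red DI) and lines join the means of the 2 libraries of a group. The Tmem173 points of DI lie below those of Ctrl at each of the 5 times, and the 2 DI libraries at 0 h are far apart for Ddx58 (80.9 and 317 CPM) and Aim2 (7.78 and 26.0 CPM).

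Treatment was compared at each time with edgeR's quasi-likelihood test, and a gene is called at an adjusted p under 0.05. Among the 7 genes, 1 was called lower in DI cells at 0 h (Tmem173) and 2 were at 1 h (Ifih1, Tmem173). The number was 3 at 2 h (Ifih1, Tmem173, Aim2), then 2 at 4 h (Dhx58, Tmem173) and 5 at 6 h. Of all tested genes, 2.17, 3.03, 3.97, 6.00 and 8.95% were called lower at these times. The median log2 difference of the 7 was -0.67, -0.80, -0.78, -0.50 and -1.32, while that of all tested genes was -0.05, 0.0034, -0.03, -0.06 and -0.03. All 35 differences of the 7 genes at the 5 times were below 0 in the main fit, and they are not independent of each other. That of Zbp1 at 6 h turned to 0.02 when the library factors came from abundant genes. Leaving out 1 library could also turn it above 0, as well as those of Ddx58 at 0 and 1 h and Eif2ak2 at 0 h. The share of all tested genes below 0 was not counted. Both DI libraries lay below both Ctrl libraries in 4 genes at 0 h and in 6 at each later time, against 26.7, 25.3, 28.3, 31.2 and 29.7% of all tested genes at 0, 1, 2, 4 and 6 h. Of the 13 calls, 5 were kept under every alternative tried: Dhx58 and Tmem173 at 4 h, and Ifih1, Tmem173 and Eif2ak2 at 6 h.

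Other measures moved with the treatment. Fibroblast markers (5 of 5 measured, none at 0 throughout) summed to 38.5 to 68.7 CPM in Ctrl libraries and 5.30 to 39.7 in DI libraries, and their part in the differences was not tested. Fewer macrophages and less RNA per cell cannot be told apart in these bulk samples. The counts were also divided by the estimated reads per molecule, a number fixed for each library. Scaling to library totals undoes such a division, so the log2 values were bound to stay close to the main fit. This fit therefore cannot test fibroblast content, macrophage number or RNA per cell. In it 2, 2, 3, 2 and 5 of the 7 genes were called lower at 0, 1, 2, 4 and 6 h, and none was called higher. Of all tested genes, 6.94 and 7.63% were called in either direction at 0 and 1 h, against 3.60 and 4.89% in the main fit. Its shares at 2, 4 and 6 h are not given. At 6 h the log2 difference was -1.99 (adjusted p = 5.53e-05) for Ifih1, -1.74 (adjusted p = 0.00139) for Tmem173 and -1.34 (adjusted p = 0.00129) for Eif2ak2. The main fit gave -1.97, -1.77 and -1.32.

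**Figure D2:**
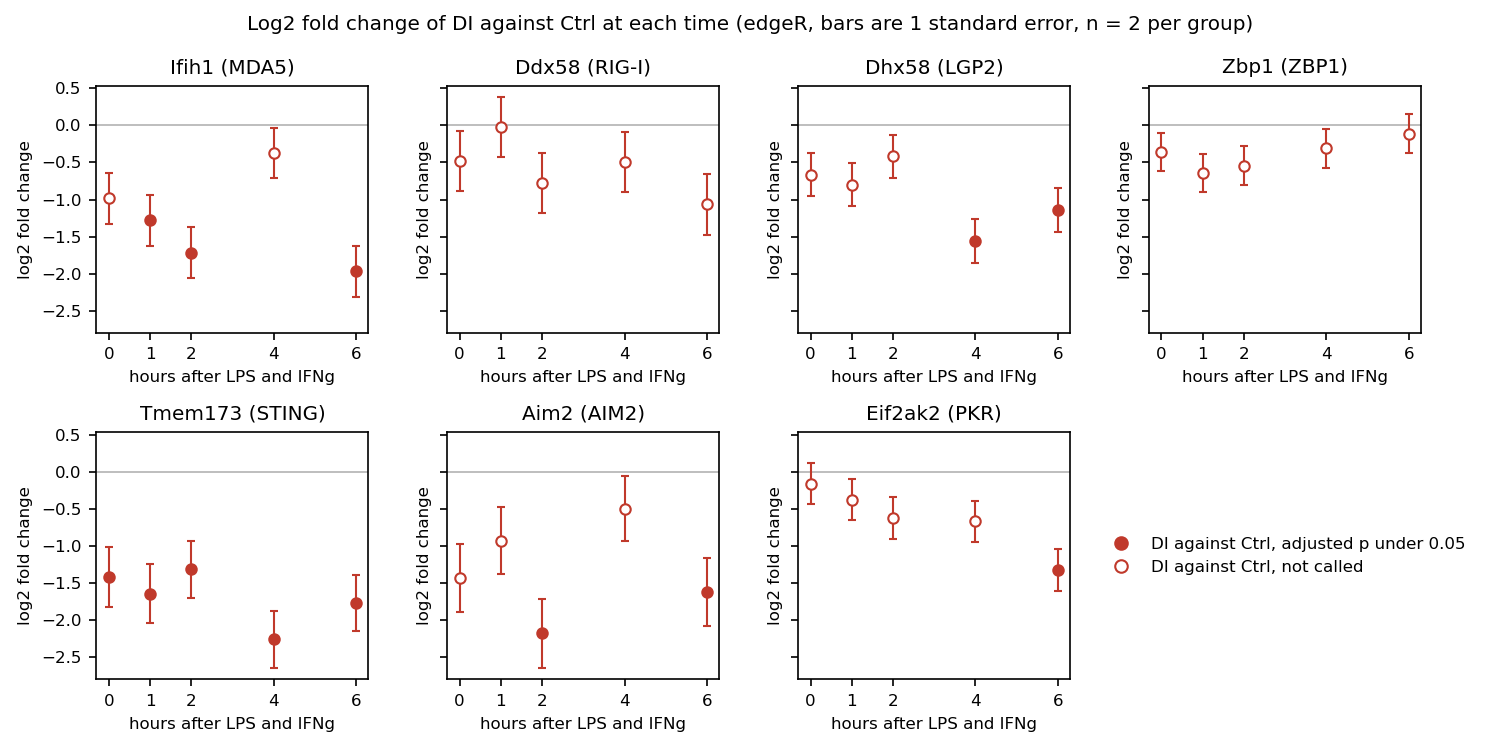
Log2 fold change of DI against Ctrl for each gene at each time, with 1 standard error (edgeR, 2 libraries per group). Filled points have an adjusted p under 0.05. Tmem173 is filled at all 5 times, Ddx58 and Zbp1 at none, and the lowest point is Tmem173 at 4 h (-2.26).

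Ifih1, which encodes MDA5, was called lower in DI cells at 1, 2 and 6 h. The Ctrl libraries held 178 and 179 (0 h), 268 and 559.6 (1 h), 999 and 787 (2 h), 967 and 949 (4 h) and 2107 and 1048 (6 h), in CPM with replicate 1 before replicate 2. The DI libraries held 67.0 and 113 (0 h), 196 and 146 (1 h), 294 and 249 (2 h), 628 and 847 (4 h) and 386 and 419 (6 h). Each DI pair lay below the Ctrl pair of its time, and the gap was narrow at 4 h, where the highest DI library was 847 CPM and the lowest Ctrl library 949. In Ctrl the mean was highest at 6 h, but the replicates there were 2107 and 1048 CPM. In DI the mean was highest at 4 h, at 738 ± 155 CPM (SD, n = 2), and 403 ± 23.3 CPM at 6 h.

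The log2 differences of Ifih1 between DI and Ctrl were -0.98 ± 0.34, -1.28 ± 0.34, -1.72 ± 0.35, -0.38 ± 0.34 and -1.97 ± 0.35 (SE) at 0, 1, 2, 4 and 6 h, with adjusted p of 0.133, 0.0286, 0.00268, 0.556 and 0.000301. It was thus 2.42-fold lower at 1 h, 3.29-fold lower at 2 h and 3.92-fold lower at 6 h, and not called at 0 and 4 h. Where a call was lost or gained in another fit, the log2 value and its adjusted p in that fit follow in parentheses, here and below. At 1 h the call was lost in a model of the compared groups alone (-1.28, 0.106), without replicate 2 of Ctrl 1 h (-0.65, 0.534), without replicate 1 of DI 1 h (-1.50, 0.0581) and without replicate 2 of DI 1 h (-1.08, 0.281). At 2 h it was lost without replicate 2 of DI at 2, 4 and 6 h (-1.60, 0.0576) and without replicate 2 of DI 2 h (-1.60, 0.0608). The 6 h call was kept in every fit. At 0 h it was gained with no filter on low counts (-1.01, 0.0288). Ranked by mean, the 10 groups ran Ctrl 6 h, Ctrl 4 h, Ctrl 2 h, DI 4 h, Ctrl 1 h, DI 6 h, DI 2 h, Ctrl 0 h, DI 1 h and DI 0 h. The libraries of neighbouring groups overlapped between Ctrl 4 h and Ctrl 2 h, Ctrl 2 h and DI 4 h, Ctrl 1 h and DI 6 h, and Ctrl 0 h and DI 1 h.

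Ddx58, which encodes RIG-I, was not called at any time between treatments. Ctrl libraries held 296 and 259 (0 h), 335 and 478 (1 h), 537 and 471 (2 h), 671 and 630.4 (4 h) and 867 and 514 CPM (6 h). DI libraries held 80.9 and 317 (0 h), 337 and 464 (1 h), 348 and 239 (2 h), 371 and 552 (4 h) and 303 and 356 CPM (6 h). The treatments overlapped at 0 and 1 h and were apart at 2, 4 and 6 h. By ratio, the 0 h DI replicates were the farthest apart of any of its groups, whereas in CPM the gap was larger in Ctrl at 6 h. Log2 differences were -0.48 ± 0.40, -0.02 ± 0.40, -0.78 ± 0.40, -0.50 ± 0.40 and -1.07 ± 0.41 (SE) at 0, 1, 2, 4 and 6 h, with adjusted p of 0.724, 0.997, 0.288, 0.505 and 0.083. At 6 h the gene was called with no filter on low counts (-1.07, 0.0064) and in a model of the compared groups alone (-1.05, 0.041). At 0 h 1 library decided the sign: the gene was above 0 without replicate 1 of DI 0 h (0.19, 0.898) and called lower without replicate 2 of DI 0 h (-1.78, 0.0105). At 1 h the value turned to 0.26 without Ctrl 1 h replicate 2 and to 0.19 without DI 1 h replicate 1. From high to low the groups ran Ctrl 6 h, Ctrl 4 h, Ctrl 2 h, DI 4 h, Ctrl 1 h, DI 1 h, DI 6 h, DI 2 h, Ctrl 0 h and DI 0 h. Among these neighbours, Ctrl 4 h and Ctrl 2 h were the only pair whose libraries did not overlap.

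Dhx58, which encodes LGP2, differed most between treatments at 4 h. Ctrl libraries held 117 and 103 (0 h), 138 and 136 (1 h), 174 and 214 (2 h), 259 and 281 (4 h) and 212 and 284 CPM (6 h). DI libraries held 77.6 and 61.0 (0 h), 62.1 and 94.8 (1 h), 108 and 183 (2 h), 99.8 and 83.5 (4 h) and 117 and 108 CPM (6 h). All DI pairs were below the Ctrl pairs except at 2 h, where replicate 2 of DI lay between the Ctrl replicates. The Ctrl mean was highest at 4 h (270.2 ± 15.9 CPM, SD, n = 2), whereas the DI mean was highest at 2 h (146 ± 52.8 CPM). Log2 differences were -0.67 ± 0.29, -0.80 ± 0.29 and -0.42 ± 0.29 (SE) at 0, 1 and 2 h, none of them called (adjusted p = 0.282, 0.136 and 0.469). At 4 h the gene was 2.95-fold lower in DI (-1.56 ± 0.30, adjusted p = 0.000991), a call kept in every fit, and at 6 h 2.21-fold lower (-1.14 ± 0.30, adjusted p = 0.00933). The 6 h call was lost without replicate 2 of Ctrl 6 h (-0.92, 0.12) and without replicate 2 of DI 6 h (-1.09, 0.0709). An antisense gene, Dhx58os, overlaps its exons, and since the strand option of the counting is not given, reads of the pair may not be told apart.

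By mean, the Dhx58 groups ran Ctrl 4 h, Ctrl 6 h, Ctrl 2 h, DI 2 h, Ctrl 1 h, DI 6 h, Ctrl 0 h, DI 4 h, DI 1 h and DI 0 h. Neighbours were apart in 2 of 9 steps, from Ctrl 1 h to DI 6 h and from Ctrl 0 h to DI 4 h. DI libraries 4 h after the stimulus were below those of Ctrl cells with no stimulus, at 99.8 and 83.5 against 117 and 103 CPM, a difference that was not tested.

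Eif2ak2, which encodes PKR, was called lower in DI cells at 6 h alone. Ctrl libraries held 234 and 227 (0 h), 314 and 396 (1 h), 511 and 548 (2 h), 569.6 and 604 (4 h) and 609 and 497 CPM (6 h). DI libraries held 136 and 277 (0 h), 287 and 261 (1 h), 340.4 and 348 (2 h), 346 and 394 (4 h) and 203 and 239.8 CPM (6 h). The treatments overlapped at 0 h, where replicate 2 of DI was above both Ctrl libraries, and were apart from 1 h on. Log2 differences were -0.16 ± 0.28, -0.38 ± 0.28, -0.62 ± 0.28, -0.67 ± 0.28 and -1.32 ± 0.28 (SE) at 0, 1, 2, 4 and 6 h. Adjusted p were 0.913, 0.583, 0.203, 0.141 and 0.00212, and the 6 h call, 2.49-fold lower, was kept in every fit. The 0 h value was above 0 without replicate 1 of DI 0 h (0.27, 0.768). The DI libraries at 6 h overlapped those of Ctrl cells with no stimulus, at 203 and 239.8 against 234 and 227 CPM.

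By mean, the Eif2ak2 groups ran Ctrl 4 h, Ctrl 6 h, Ctrl 2 h, DI 4 h, Ctrl 1 h, DI 2 h, DI 1 h, Ctrl 0 h, DI 6 h and DI 0 h. Libraries were apart from Ctrl 2 h to DI 4 h, from DI 2 h to DI 1 h and from DI 1 h to Ctrl 0 h, and overlapped in the other 6 steps. A lincRNA and an rRNA gene on the other strand, Gm26637 and n-R5s29, overlap Eif2ak2 exons.

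Zbp1, the sensor of Z-form nucleic acids, was the member with the smallest treatment difference at 6 h. Ctrl libraries held 125 and 90.5 (0 h), 276 and 214 (1 h), 210.4 and 228 (2 h), 259 and 266 (4 h) and 272 and 297 CPM (6 h). DI libraries held 90.7 and 77.3 (0 h), 137 and 176 (1 h), 151 and 150.4 (2 h), 223 and 201 (4 h) and 226 and 303 CPM (6 h). The treatments were apart at 1, 2 and 4 h and overlapped at 0 h and at 6 h, where replicate 2 of DI was the highest of the 4 libraries. Log2 differences were -0.36 ± 0.26, -0.64 ± 0.26, -0.54 ± 0.26, -0.31 ± 0.26 and -0.11 ± 0.26 (SE), with adjusted p of 0.654, 0.2, 0.246, 0.529 and 0.838, and none was called in any fit. At 6 h the sign turned without DI 6 h replicate 1, to 0.09. The groups ran Ctrl 6 h, DI 6 h, Ctrl 4 h, Ctrl 1 h, Ctrl 2 h, DI 4 h, DI 1 h, DI 2 h, Ctrl 0 h and DI 0 h, and were apart from DI 4 h to DI 1 h and from DI 2 h to Ctrl 0 h only.

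Tmem173, which encodes STING, was called lower in DI cells at all 5 times. Ctrl libraries held 11.8 and 14.4 (0 h), 25.5 and 18.4 (1 h), 35.7 and 44.1 (2 h), 108 and 83.8 (4 h) and 65.1 and 70.8 CPM (6 h). DI libraries held 5.30 and 4.50 (0 h), 7.43 and 6.56 (1 h), 23.1 and 8.77 (2 h), 21.7 and 18.3 (4 h) and 23.0 and 16.7 CPM (6 h). Both DI libraries were below both Ctrl libraries at every time. The highest DI library of any time, 23.1 CPM, was below all Ctrl libraries from 2 h on. These values rest on few reads, 30 to 112 reads per DI library against 130 to 388 reads per Ctrl library, or an estimated 4.83 to 20.9 molecules against 55.1 to 138 molecules.

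Tmem173 was 2.67-fold lower in DI at 0 h (-1.42 ± 0.40, SE; adjusted p = 0.0461), 3.12-fold lower at 1 h (-1.64 ± 0.40; 0.0125), 2.49-fold lower at 2 h (-1.32 ± 0.38; 0.0389), 4.78-fold lower at 4 h (-2.26 ± 0.39; 0.000329) and 3.41-fold lower at 6 h (-1.77 ± 0.38; 0.00234). The 4 and 6 h calls were kept in every fit. The 0 h call was lost when any 1 of its 4 libraries was left out, at -1.56 to -1.27 (0.121 to 0.275). It was also lost with TMM factors from abundant genes (-1.42, 0.0514), with limma-voom (-1.42, 0.0926) and in a model of the compared groups alone (-1.38, 0.176). The 1 h call was lost without replicate 1 of Ctrl 1 h (-1.40, 0.148), without replicate 1 of DI 1 h (-1.73, 0.0532) and without replicate 2 of DI 1 h (-1.55, 0.144). The 2 h call was lost in a model of the compared groups alone (-1.31, 0.163), without replicate 2 of DI at 2, 4 and 6 h (-0.79, 0.254), without replicate 1 of Ctrl 2 h (-1.46, 0.0935), without replicate 2 of Ctrl 2 h (-1.15, 0.228) and without replicate 2 of DI 2 h (-0.79, 0.371). The groups ran Ctrl 4 h, Ctrl 6 h, Ctrl 2 h, Ctrl 1 h, DI 4 h, DI 6 h, DI 2 h, Ctrl 0 h, DI 1 h and DI 0 h, and the overlapping neighbours were Ctrl 1 h, DI 4 h, DI 6 h, DI 2 h and Ctrl 0 h, each with the next.

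Aim2, the DNA sensor of the inflammasome, was called lower in DI cells at 2 and 6 h. Ctrl libraries held 53.7 and 38.9 (0 h), 60.2 and 71.2 (1 h), 134 and 100.4 (2 h), 143 and 102 (4 h) and 156 and 99.5 CPM (6 h). DI libraries held 7.78 and 26.0 (0 h), 30.7 and 38.2 (1 h), 35.2 and 16.5 (2 h), 68.1 and 106 (4 h) and 26.1 and 56.9 CPM (6 h). The treatments overlapped at 4 h alone, where replicate 2 of DI was above replicate 2 of Ctrl. Aim2 was 4.52-fold lower at 2 h (-2.18 ± 0.47, SE; adjusted p = 0.0046) and 3.09-fold lower at 6 h (-1.63 ± 0.46; adjusted p = 0.0174). At 0, 1 and 4 h the log2 differences were -1.43 ± 0.46, -0.93 ± 0.45 and -0.49 ± 0.44 (adjusted p = 0.0918, 0.312 and 0.557). The 2 h call was lost without replicate 2 of DI at 2, 4 and 6 h (-1.74, 0.0703) and without replicate 2 of DI 2 h (-1.74, 0.117). The 6 h call was lost without replicate 1 of Ctrl 6 h (-1.27, 0.173) and without replicate 1 of DI 6 h (-1.16, 0.18). At 0 h the gene was called lower with no filter on low counts (-1.46, 0.00227), with limma-voom (-1.57, 0.0455), with the DESeq2 Wald test (-1.45, 0.0397), on counts per estimated molecule (-1.48, 0.0239), without replicate 2 of DI at 2, 4 and 6 h (-1.43, 0.0468) and without replicate 2 of DI 0 h (-2.57, 0.00905). Its DI values rest on 44 to 399 reads per library, an estimated 9.08 to 42.8 molecules. From high to low the groups ran Ctrl 6 h, Ctrl 4 h, Ctrl 2 h, DI 4 h, Ctrl 1 h, Ctrl 0 h, DI 6 h, DI 1 h, DI 2 h and DI 0 h, and Ctrl 1 h to Ctrl 0 h was the only step without overlap.

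The rise after the stimulus was then followed within each treatment, with 0 h as the reference. In Ctrl cells 2 of the 7 genes rose by 1 h (Ifih1, Zbp1), 4 by 2 h (with Tmem173 and Eif2ak2) and all 7 at 4 and 6 h, where 3.65, 9.13, 14.7 and 15.2% of all tested genes were called higher. In DI cells 0, 4, 6 and 3 of the 7 were called higher, against 3.29, 7.89, 11.4 and 11.2% of all tested genes. At an unadjusted p under 0.05, 4 of the 7 were higher in DI at 1 h, and the DESeq2 Wald test called 1 there. The share of all tested genes at that unadjusted threshold was not counted, here and below. The median log2 rise of the 7 was 0.62, 1.20, 1.35 and 1.40 in Ctrl, where that of all genes was -0.03, -0.11, -0.15 and -0.17. In DI it was 0.90, 0.84, 1.34 and 1.27, with 0.02, -0.05, -0.12 and -0.10 for all genes. Library factors taken from genes of at least 32 CPM lowered the median of all genes by 0.34 at 4 h and 0.30 at 6 h in Ctrl and by 0.23 at 4 h in DI. With them 5, 6 and 4 of the 7 genes were still called higher in these comparisons, against 11.2, 11.9 and 9.27% of all tested genes.

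**Figure D3:**
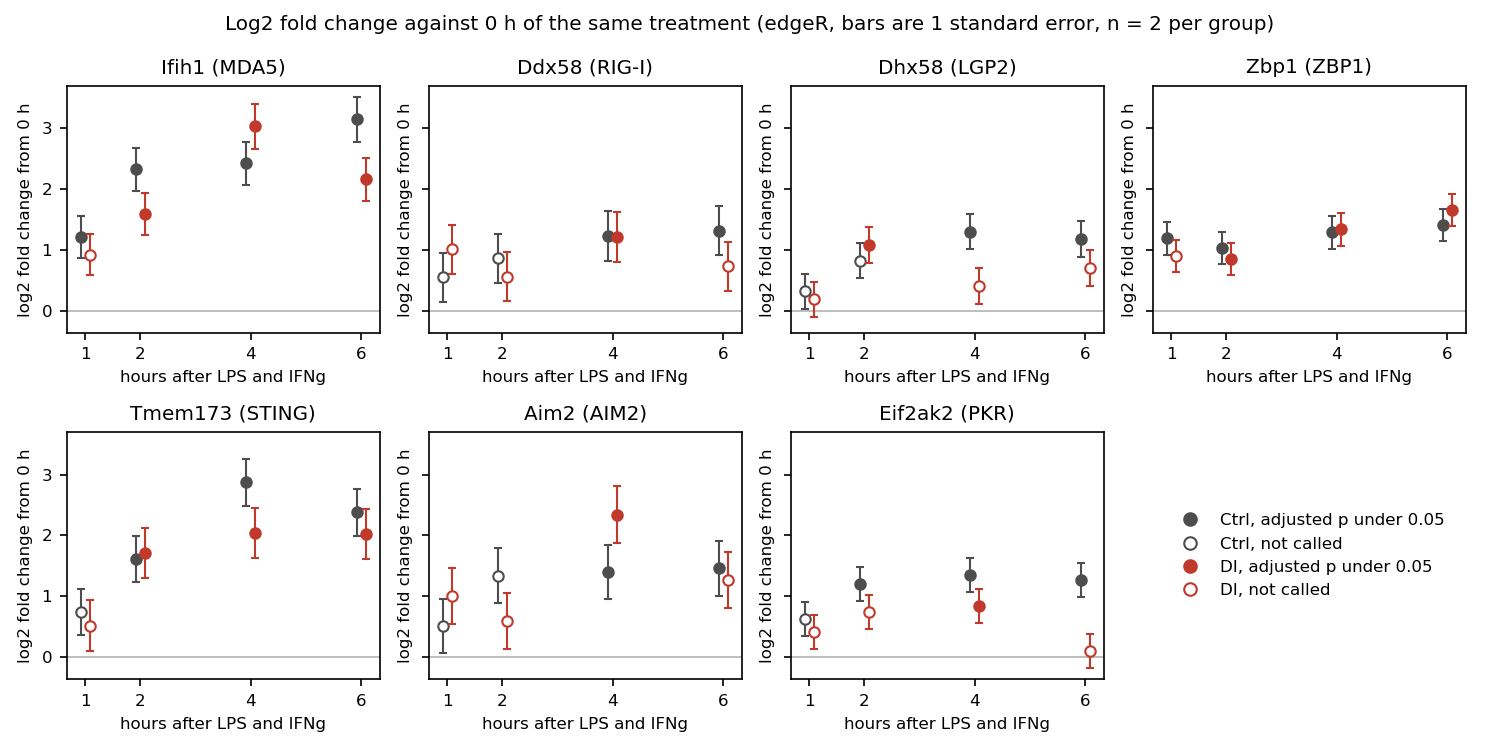
Log2 fold change against 0 h of the same treatment, with 1 standard error (edgeR, 2 libraries per group), for Ctrl (grey) and DI (red). Filled points have an adjusted p under 0.05. All 7 genes are filled in Ctrl at 4 and 6 h, and in DI 6 are filled at 4 h and 3 at 6 h (Ifih1, Zbp1, Tmem173).

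Ifih1 and Tmem173 had the steepest rises in Ctrl cells. Ifih1 was 2.32-fold higher than at 0 h at 1 h (1.21 ± 0.34, SE; adjusted p = 0.0424), 4.99-fold higher at 2 h (2.76e-05), 5.36-fold higher at 4 h (1.05e-05) and 8.82-fold higher at 6 h (3.12e-07). Its 1 h call was lost with TMM factors from abundant genes (1.12, 0.0537), with the replicate block (1.21, 0.0544), without replicate 2 of DI at 2, 4 and 6 h (1.21, 0.0618), without replicate 1 of Ctrl 0 h (1.21, 0.281), without replicate 2 of Ctrl 0 h (1.22, 0.285) and without replicate 2 of Ctrl 1 h (0.59, 0.871). Tmem173 was 3.05-fold higher at 2 h (0.00394), 7.31-fold higher at 4 h (3.39e-06) and 5.20-fold higher at 6 h (3.68e-05). Its 2 h call was lost without replicate 1 of Ctrl 0 h (1.47, 0.0775) and without replicate 2 of Ctrl 2 h (1.45, 0.0519). Zbp1 had already risen 2.27-fold at 1 h (1.18 ± 0.26; adjusted p = 0.00587) and was 2.64-fold higher at 6 h (0.00024). Its call at 1 h was lost without replicate 2 of Ctrl 0 h (0.97, 0.216) and without replicate 1 of Ctrl 1 h (0.99, 0.114). The one at 2 h (2.04-fold higher, 0.00892) was lost without replicate 2 of Ctrl 0 h (0.81, 0.191) and without replicate 2 of Ctrl 2 h (0.97, 0.0698).

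Of the other 4 genes, Eif2ak2 was first called in Ctrl cells at 2 h, and Dhx58, Aim2 and Ddx58 at 4 h. Eif2ak2 was 2.30-fold higher at 2 h (1.20 ± 0.28; adjusted p = 0.00398) and 2.40-fold higher at 6 h (0.00133). The 2 h call of Eif2ak2 was lost without replicate 2 of Ctrl 0 h (1.18, 0.056). Dhx58 was 2.46-fold higher at 4 h (1.30 ± 0.29; 0.00162) and 2.26-fold higher at 6 h (0.00367). The 6 h call of Dhx58 was lost without replicate 2 of Ctrl 0 h (1.09, 0.0535) and without replicate 2 of Ctrl 6 h (0.95, 0.0634). Aim2 was 2.64-fold higher at 4 h (1.40 ± 0.45; 0.0233) and 2.75-fold higher at 6 h (0.0173). The Aim2 call at 4 h was lost with TMM factors from abundant genes (1.06, 0.0651), without replicate 1 of Ctrl 0 h (1.65, 0.061), without replicate 2 of Ctrl 0 h (1.19, 0.188) and without replicate 1 of Ctrl 4 h (1.14, 0.171). The one at 6 h was lost without replicate 2 of Ctrl 0 h (1.25, 0.158) and without replicate 1 of Ctrl 6 h (1.10, 0.176). Ddx58 was 2.34-fold higher at 4 h (1.23 ± 0.41; 0.0285) and 2.48-fold higher at 6 h (0.0181). Its 4 h call was lost when any 1 of the 4 libraries was left out, at 1.13 to 1.33 (0.0875 to 0.173), and with TMM factors from abundant genes. Its 6 h call was lost with TMM factors from abundant genes (1.01, 0.0509), without replicate 1 of Ctrl 0 h (1.41, 0.0767), without replicate 2 of Ctrl 0 h (1.22, 0.134) and without replicate 1 of Ctrl 6 h (0.89, 0.232). At 2 h Dhx58 and Aim2 were just outside the threshold (adjusted p = 0.0691 and 0.051). A model of the compared groups alone called all 7 genes there, and called 25.7% of all tested genes in either direction against 12.2% in the main fit.

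In DI cells Ifih1 rose most, to 8.16-fold at 4 h (3.03 ± 0.37; adjusted p = 7.65e-07) and 4.45-fold at 6 h (6.97e-05). Aim2 was 5.06-fold higher at 4 h (2.34 ± 0.47; 0.00077) and Tmem173 4.09-fold higher (2.03 ± 0.41; 0.000759). Zbp1 was 2.52-fold higher at 4 h (0.000683) and 3.14-fold higher at 6 h (6.09e-05), and Tmem173 4.08-fold higher at 6 h (0.00075). These 4 h and 6 h calls were kept in every fit. Ddx58 (2.32-fold higher, 0.039) and Eif2ak2 (1.79-fold higher, 0.0368) were also called at 4 h. The Ddx58 call was lost with TMM factors from abundant genes (1.02, 0.0624), in a model of the compared groups alone (1.23, 0.148), on counts per estimated molecule (1.15, 0.0645), without replicate 2 of DI at 2, 4 and 6 h (0.90, 0.236), without replicate 1 of DI 0 h (0.54, 0.352) and without replicate 2 of DI 4 h (0.90, 0.254). The Eif2ak2 call was lost with TMM factors from abundant genes (0.63, 0.0967), in a model of the compared groups alone (0.85, 0.178), on counts per estimated molecule (0.78, 0.0614), without replicate 2 of DI at 2, 4 and 6 h (0.74, 0.144), without replicate 1 of DI 0 h (0.42, 0.358), without replicate 1 of DI 4 h (0.93, 0.0593) and without replicate 2 of DI 4 h (0.74, 0.166).

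At 2 h in DI cells the called genes were Ifih1 (3.01-fold higher, adjusted p = 0.00256), Tmem173 (3.28-fold higher, 0.00565), Dhx58 (2.10-fold higher, 0.0173) and Zbp1 (1.79-fold higher, 0.0396). The Ifih1 call was lost without replicate 1 of DI 0 h (1.26, 0.0641). For Tmem173 it was lost in a model of the compared groups alone (1.71, 0.181), without replicate 2 of DI 0 h (1.59, 0.0621) and without replicate 1 of DI 2 h (0.91, 0.197). For Dhx58 it was lost in a model of the compared groups alone (1.07, 0.156), without replicate 2 of DI at 2, 4 and 6 h (0.65, 0.237), without replicate 2 of DI 0 h (0.91, 0.136) and without replicate 2 of DI 2 h (0.65, 0.286). The Zbp1 call was lost when any 1 of the 4 libraries was left out, at 0.73 to 0.96 (0.063 to 0.184), and in 5 other fits. Dhx58 was no longer called at 4 h (log2 rise 0.41 ± 0.29, adjusted p = 0.372) or at 6 h (0.70 ± 0.29, 0.0987), and Eif2ak2 had a log2 value of 0.10 ± 0.28 at 6 h (0.851). The rises of Ddx58, Aim2 and Eif2ak2 in DI depend on the 0 h replicates, which were 80.9 and 317, 7.78 and 26.0 and 136 and 277 CPM. At 6 h Ddx58 was called higher without replicate 2 of DI 0 h (2.02, 0.00099). Aim2 was called higher there with no filter on low counts (1.26, 0.005), with the DESeq2 Wald test (1.29, 0.0314), without replicate 2 of DI 0 h (2.40, 0.00453) and without replicate 1 of DI 6 h (1.73, 0.0229). The log2 value of Eif2ak2 was -0.32 without DI 0 h replicate 1.

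Whether the rise itself differed between treatments was tested as the DI response minus the Ctrl response. None of the 7 genes was called at 1, 2, 4 or 6 h with edgeR, while 0.253, 0.356, 0.760 and 1.55% of all tested genes were called in either direction. At an unadjusted p under 0.05 there were 0, 0, 1 and 1 of the 7, with no share of all tested genes counted at that threshold. The DESeq2 Wald test also called 0 of the 7 at each time. The log2 differences of the response ran from -1.16 to 0.94, with standard errors of 0.37 to 0.64. The lowest was Eif2ak2 at 6 h (-1.16 ± 0.39, unadjusted p = 0.00706, adjusted p = 0.176), and it was called without replicate 1 of DI 0 h (-1.58, 0.0195). Ifih1 at 6 h had -0.99 ± 0.48 (unadjusted p = 0.0508, adjusted p = 0.447) and Dhx58 at 4 h -0.89 ± 0.41 (0.0406 and 0.458). The treatment and the time comparisons share libraries, so they are not independent of each other.

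The step from 4 to 6 h was added after the levels had been seen, because Ifih1, Ddx58, Aim2 and Eif2ak2 had lower means at 6 h than at 4 h in DI cells. Within DI the log2 steps were -0.87 ± 0.34 for Ifih1 (adjusted p = 0.218), -1.07 ± 0.45 for Aim2 (0.259) and -0.74 ± 0.28 for Eif2ak2 (0.207). In Ctrl they were 0.72 ± 0.34, 0.06 ± 0.44 and -0.09 ± 0.28 (adjusted p = 0.556, 0.996 and 0.994). For Ddx58 the step was -0.49 ± 0.40 in DI (adjusted p = 0.587) and 0.08 ± 0.40 in Ctrl (0.995). The difference of the steps was -1.59 ± 0.48 for Ifih1 (unadjusted p = 0.00285, adjusted p = 0.311). None of the 7 genes was called in Ctrl, in DI or for the difference, where 0.525, 1.00 and 0.0281% of all tested genes were. At an unadjusted p under 0.05 these were 1, 3 and 1 of the 7, again with no share of all tested genes counted.

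The levels of the 7 genes were also set against each other. Pearson's r of log2 group means over the 10 groups, a description of points that share libraries and times, was highest for Dhx58 and Tmem173 (0.95), Ifih1 and Tmem173 (0.93) and Ddx58 and Aim2 (0.93), and lowest for Dhx58 and Zbp1 (0.68). Over the 5 Ctrl groups alone the 21 pairs ran from 0.80 to 0.997, and over the 5 DI groups from 0.17 to 0.95. In Ctrl, Ddx58 and Dhx58 had 0.98 and Dhx58 and Aim2 0.96. In DI the same pairs had 0.27 and 0.17. These were the 2 lowest pairs in DI, where Dhx58 was highest at 2 h.

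Among 7909 genes of at least 5 CPM, the genes whose 10 group means were most like each member were found in the same way. For Ifih1 they were Mx2, Sp140, Nsd3 (r = 0.981, 0.977, 0.977), with Mx2 a known interferon-stimulated gene. For Tmem173 they were Lgals3bp, Bcl2a1b, Rap1b (0.989, 0.987, 0.985), and for Eif2ak2 Setdb2, Tet2, Vma21 (0.983, 0.970, 0.966). Aim2 was most like Slfn9, Sp100, Asah2 (0.979, 0.963, 0.953), and Ddx58 most like Phf11c, Nckap1l, Klrk1 (0.972, 0.969, 0.962). Dhx58 had Srgn, Carhsp1, Abracl (0.973, 0.970, 0.970), and Zbp1 had Cyfip1, Clec4e, Scpep1 (0.969, 0.964, 0.957).

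Genes that work with the sensors were taken from 7 lists of 89 genes in all. Of 69 calls of their genes between treatments over the 5 times, 24 were kept under every alternative, and none turned in sign. Percentages of all tested genes called lower are those given above for the sensors, and 1.43, 1.86, 2.27, 3.43 and 5.24% of all tested genes were called higher at 0, 1, 2, 4 and 6 h.

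Downstream of MDA5 and RIG-I, the adaptor and kinase genes differed in both directions. Of 15 such genes, those called lower in DI numbered 2, 2, 2, 2 and 2 at 0, 1, 2, 4 and 6 h, and those called higher 1, 0, 1, 2 and 1. The list median at 6 h was -0.33, with -0.03 for all genes. The 2 lower genes at each time were Ikbke (the kinase IKKε) and Tank (an adaptor of TBK1 and IKKε), although their calls outside 2 h for Ikbke were each lost in 1 to 6 alternatives and those of Tank in 2 to 5. Traf3, a ubiquitin ligase named after its value was seen, was called higher at 4 h beside Ikbkg, a call lost in 6 alternatives, among them without replicate 2 of DI 4 h (0.90, 0.39). Ikbke was 3.79-fold lower at 2 h (53.6 ± 17.9 against 204 ± 54.2 CPM, SD; log2 -1.92 ± 0.32, adjusted p = 0.000308), a call kept in every fit. Ikbkg, the regulatory subunit NEMO, was 3.14-fold higher at 6 h (48.0 ± 9.77 against 15.2 ± 4.29 CPM; 1.65 ± 0.35, 0.00207). This call was lost without replicate 1 of Ctrl 6 h (1.40, 0.061), and those of Ikbkg at 0, 2 and 4 h were lost in 5, 5 and 7 alternatives. Mavs, Tbk1, Irf3 and Irf7 were not called between treatments at any time, with smallest adjusted p of 0.188, 0.0584, 0.471 and 0.11.

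Of 19 tested partners and regulators of RIG-I, MDA5, LGP2 and PKR, those called lower numbered 1, 0, 1, 1 and 2 at 0, 1, 2, 4 and 6 h, and 1 was called higher, Trim25 at 2 h. The list median at 6 h was -0.15. Ddx60, a helicase described as a cofactor of RIG-I, was 2.75-fold lower at 6 h (416 ± 113 against 1143 ± 23.3 CPM; -1.46 ± 0.26, adjusted p = 0.000274), kept in every fit. Trim25, a ubiquitin ligase of RIG-I, was 2.05-fold higher at 2 h (1.03 ± 0.27; 0.0228). That call was lost in a model of the compared groups alone (1.04, 0.108), without replicate 2 of DI at 2, 4 and 6 h (0.75, 0.188), without replicate 1 of Ctrl 2 h (0.88, 0.238), without replicate 2 of Ctrl 2 h (1.21, 0.0707) and without replicate 2 of DI 2 h (0.75, 0.253). Trim65, a ubiquitin ligase of MDA5, was at 0 in both DI libraries at 2 h, against a Ctrl mean of 4.94 CPM. A floor of 3 counts per library would make it 6.79-fold lower. This is not a bound, since 1 molecule stood for an estimated 4.88 and 7.05 reads in these libraries. The Trim65 call was lost in a model of the compared groups alone (adjusted p = 0.0572). Ddx60 was also the lower gene at 0 and 4 h, with calls lost in 1 and 8 alternatives (at 4 h -0.65, 0.292 without replicate 2 of Ctrl 4 h), and the other at 6 h was Ddx3x, named after its value was seen, with a call lost in 5 alternatives.

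Among 14 tested genes of DNA sensing there were few calls: 1 lower at 2 h (Rnaseh2b, a subunit of RNase H2, 3.51-fold lower, adjusted p = 0.00366), 1 higher at 4 h (Trim56), and 1 lower (Enpp1) and 1 higher (Trim56) at 6 h. The Rnaseh2b call was lost without replicate 1 of Ctrl 2 h (-1.30, 0.112) and without replicate 2 of DI 2 h (-1.71, 0.0631). Trim56, a ubiquitin ligase that acts on cGAS and STING, was 3.0-fold higher at 4 h (467 ± 57.4 against 156 ± 17.5 CPM; 1.58 ± 0.29, 0.000646), and this call was kept in every fit. Enpp1, which breaks down the cGAS product, was at 0 in both DI libraries at 6 h, against a Ctrl mean of 4.24 CPM. The floor of 3 counts per library would make it 5.79-fold lower, again not a bound, at 5.88 and 9.54 estimated reads per molecule. Its call was lost without any 1 of the 4 libraries, with limma-voom (adjusted p = 0.0743), in a model of the compared groups alone (adjusted p = 0.0505) and on estimated molecules (adjusted p = 0.17). The Trim56 call at 6 h (0.89 ± 0.28, 0.036) was lost with limma-voom (0.82, 0.0504), in a model of the compared groups alone (0.91, 0.0956), without replicate 2 of DI at 2, 4 and 6 h (0.38, 0.422), without replicate 1 of Ctrl 6 h (0.79, 0.233), without replicate 2 of Ctrl 6 h (1.01, 0.103) and without replicate 2 of DI 6 h (0.38, 0.481). The list median at 6 h was -0.02, the same with Enpp1 set at that floor. Cgas, the sensor upstream of STING, was not called between treatments at any time (smallest adjusted p = 0.091).

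Most calls among effectors of ZBP1 and AIM2 were lower in DI. Of 10 genes, those called lower numbered 1, 1, 3, 3 and 4 at 0, 1, 2, 4 and 6 h, those called higher 1, 1, 1, 0 and 1 (Ninj1), and the list median at 6 h was -0.52. Pycard, the adaptor ASC that AIM2 recruits, was 4.99-fold lower at 4 h (-2.32 ± 0.38; adjusted p = 0.000171) and 6.71-fold lower at 6 h, at 23.9 ± 8.11 against 161 ± 1.45 CPM (-2.75 ± 0.38; 1.73e-05). Il1b, an inflammasome substrate, was 5.21-fold lower at 6 h (-2.38 ± 0.33; 1.93e-05). At 0 h Il1b was at 0 in both DI libraries, against a mean of 2.10 CPM in Ctrl. The floor of 3 counts per library would make it 4.80-fold lower, not a bound at 3.58 and 5.65 estimated reads per molecule. The 0 h call was lost in a model of the compared groups alone (adjusted p = 0.177). Ninj1, which ruptures the membrane of dying cells, was 3.01-fold higher at 6 h (1.59 ± 0.30; 0.00051). These calls at 4 and 6 h were kept in every fit. Ninj1 was also the higher gene at 0, 1 and 2 h, with calls lost in 1, 6 and 5 alternatives. The others called lower at 6 h were Il18, in every fit, and Mefv, lost in 1 alternative, both named after their values were seen.

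**Figure D4:**
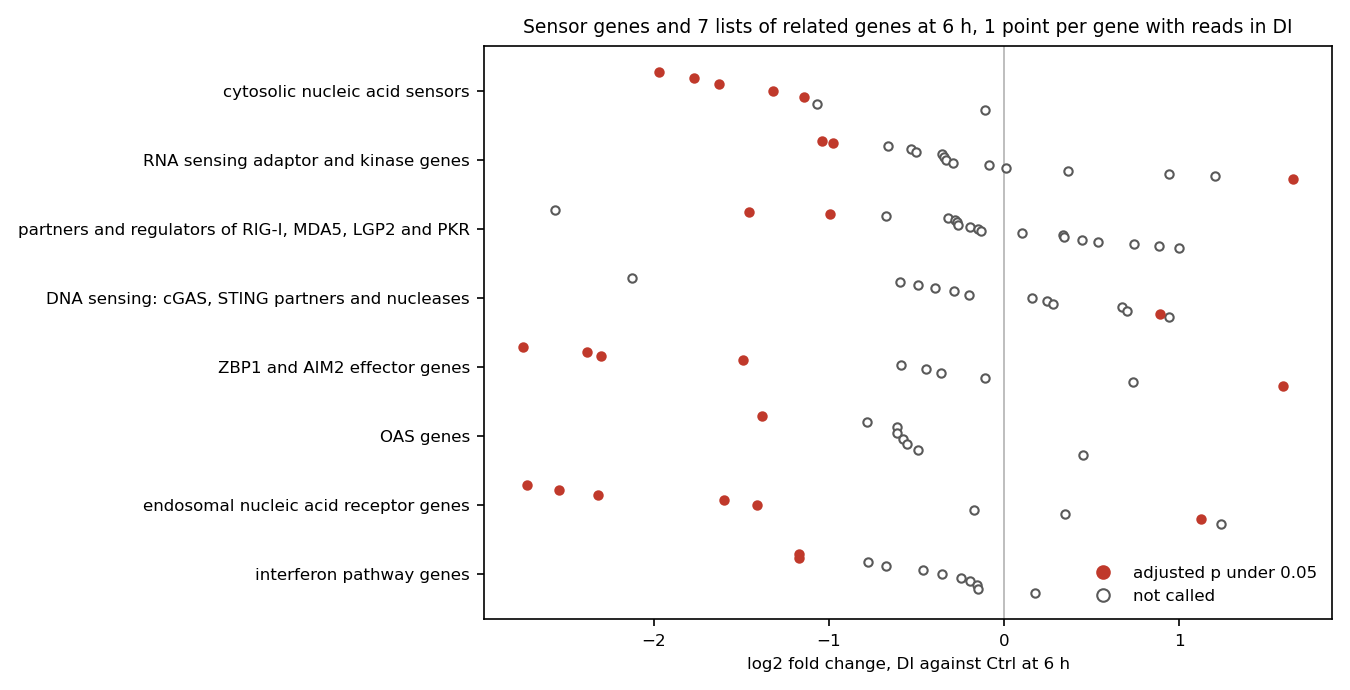
Log2 fold change of DI against Ctrl at 6 h for the 7 sensor genes (top) and the genes of 7 related lists, 1 point per gene, filled where the adjusted p is under 0.05. Enpp1, at 0 in both DI libraries, is left out. Of the sensors 5 are filled, at -1.97 to -1.14, and among the endosomal receptor genes 5 are filled below 0.

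Most calls among the endosomal nucleic acid receptors were lower in DI. Of 9 such genes, those called lower numbered 3, 3, 2, 3 and 5 at 0, 1, 2, 4 and 6 h and those called higher 0, 0, 0, 1 and 1, with a median of -1.41 at 6 h. Tlr7, a receptor of single-stranded RNA, was 6.59-fold lower at 6 h (23.8 ± 11.2 against 158 ± 2.08 CPM; -2.72 ± 0.39, adjusted p = 2.3e-05), Tlr3, a receptor of double-stranded RNA, 5.82-fold lower (-2.54 ± 0.38; 4.11e-05), and Tlr9, a receptor of DNA, 2.66-fold lower (-1.41 ± 0.30; 0.00193). All 3 calls were kept in every fit. Tlr8 and Myd88 were also lower at 6 h in every fit, and Tlr13 was the gene called higher at 4 and 6 h, with calls lost in 2 and 3 alternatives, all 3 named after their values were seen. Of 8 OAS genes, a family that includes synthetases switched on by double-stranded RNA, those called lower numbered 0, 1, 0, 2 and 1 at 0, 1, 2, 4 and 6 h, none was called higher, and the median at 6 h was -0.59. Oasl1 was 2.67-fold lower at 1 h (-1.41 ± 0.26; 0.000857), a call kept in every fit. It was not called later: Oasl1 stood at 932 ± 153 against 943 ± 76.7 CPM at 4 h, where the treatments overlapped, and at 895 ± 60.3 against 655 ± 126 CPM at 6 h (0.45 ± 0.25; 0.262), where both DI libraries were above both Ctrl libraries. The other calls of this list were Oas1a and Oas2 at 4 h and Oas1g at 6 h, the last named after its value was seen, and each was lost in 4 to 6 alternatives.

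In the interferon pathway, which acts upstream of the sensor genes, 0, 1, 1, 2 and 2 at 0, 1, 2, 4 and 6 h of 11 tested genes were called lower, none was higher, and the median at 6 h was -0.36. Stat2 was 2.25-fold lower at 6 h (-1.17 ± 0.34; 0.0224). That call was lost without replicate 1 of Ctrl 6 h (-1.02, 0.154), without replicate 2 of Ctrl 6 h (-1.30, 0.0514) and without replicate 1 of DI 6 h (-0.78, 0.22). The other lower genes were Ifngr1, a subunit of the IFNg receptor, at 2 h, and the receptor kinases Jak2 at 4 and 6 h and Tyk2 at 4 h, Tyk2 named after its value was seen, with calls lost in 3 to 7 alternatives each. Irf9 was not called at any time (smallest adjusted p = 0.619). Ifnb1, which encodes interferon beta, was 12.1-fold lower at 1 h (1.40 ± 0.00831 against 17.2 ± 2.63 CPM; -3.60 ± 0.83, 0.00937). At later times Ifnb1 was not called, with DI against Ctrl means of 12.1 and 60.7 CPM (2 h), 7.19 and 34.5 CPM (4 h) and 4.73 and 5.58 CPM (6 h). The DI value at 1 h rests on few reads, at an estimated 4.26 and 6.89 reads per molecule, so its small SD does not measure precision. The call was lost without replicate 2 of Ctrl 1 h (-3.43, 0.0575), without replicate 1 of DI 1 h (-3.60, 0.0662) and without replicate 2 of DI 1 h (-3.59, 0.124).

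In the GRCm38 annotation Ifih1 lies at chr2:62595798-62646255, Ddx58 at chr4:40203773-40239828, Dhx58 at chr11:100694884-100704271, Zbp1 at chr2:173206612-173218923 and Eif2ak2 at chr17:78852564-78882573, all on the minus strand, Aim2 at chr1:173350879-173466040 on the plus strand, and Tmem173 on the minus strand of chromosome 18. The reads come from 3′ ends, so a level sums all transcripts that share the last exons of a gene.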

How the data were processed

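RNA of 20 libraries (10 groups of 2) was measured by 3′-end sequencing, per the labels' protocols: poly(A) RNA was barcoded with an oligo-dT primer, pooled by Actb qPCR, and amplified for 12 PCR cycles, strand-specifically. No molecular identifiers are named, so reads of a molecule may repeat, and intervals from counts would cover counting error only. The authors deposited 1 table of raw counts, and per the submitters' processing notes STAR, HTSeq and DESeq2 were used with mm10. Their versions and the strand option are not given in the sources used here. Columns were matched to samples by title.

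The counts were fitted as deposited with edgeR 4.0.16 in R 4.3.3 (filterByExpr by group, TMM factors, robust quasi-likelihood fit, 1 model over all 20 libraries). Contrasts were DI against Ctrl at each time, each time against 0 h within a treatment, and their difference. Benjamini-Hochberg adjustment ran over the 10663 genes tested in each of the 17 contrasts. CPM are scaled by TMM. Reads per molecule were estimated from how many genes expected at 4 to 12 reads from the other libraries of the treatment were at 0, which also takes in changes between times.

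Named genes are the 7 sensors, the 3 genes most like each, 8 genes of fixed role, and up to 3 of each list by smallest p between treatments. For any other gene, cell type markers aside, the text says that it was picked with its value in view. The members and lists were chosen with earlier results of these data known, and 2 genes of the lists are not reported here. Alternatives were RLE factors from edgeR (the size factor method of DESeq2), the DESeq2 1.42.0 Wald test, TMM from genes of at least 32 CPM, no filter or at least 5 CPM in 2 libraries, limma-voom (limma 3.58.1), a model of only the compared groups, the replicate number as a block, counts per estimated molecule, leaving out replicate 2 of DI at 2, 4 and 6 h, and leaving out each library in turn. A group left with 1 library is assumed to vary like the other groups. The fits were tested on simulated data. Promoters came from RefSeq, GRCm38.p6.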

Additional observations from a re-analysis of the deposited data

How the results depend on the processing

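No called difference of the 7 genes turned in sign, and 22 of 46 calls were kept under every alternative. RLE factors and a filter of at least 5 CPM moved no count of called sensors by over 1.5 times. The count of 1 for treatment at 0 h became 0 with TMM from abundant genes and with only the compared groups, 2 with the DESeq2 Wald test, on estimated molecules and without replicate 2 of DI at 2, 4 and 6 h, and 3 with no filter, and ran from 0 to 2 over the left-out libraries. At 1 h the count of 2 became 1 with only the compared groups (0 to 1 over the left-out libraries). At 2 h the count of 3 became 0 without replicate 2 of DI at 2, 4 and 6 h (0 to 3). In Ctrl the count of 2 at 1 h became 1 with TMM from abundant genes, with the replicate block and without those 3 DI libraries (0 to 1), and that of 4 at 2 h became 7 with only the compared groups (2 to 4). At 6 h the left-out libraries gave 4 to 6 in place of 7. In DI the count of 0 at 1 h became 1 with no filter, limma-voom, the DESeq2 Wald test and without the 3 DI libraries (0 to 2). That of 4 at 2 h became 1 with only the compared groups and 2 without the 3 DI libraries (2 to 4). The left-out libraries gave 3 to 5 at 6 h in place of 3, and 0 to 1 in place of 0 for the response difference at 6 h. The causes were not tested, beyond the fewer libraries of some fits. Under the block the Ifih1 rise in Ctrl at 1 h was 1.21 (adjusted p = 0.0544), and the block changed no other call. Over 45 pairs of groups the correlation of same-numbered deviations ran from -0.143 to 0.113. No pairing was seen over the tested genes as a whole, but this cannot exclude that same-numbered libraries shared mice, cultures or preparation. In DI, replicate 2 had more estimated reads per molecule than replicate 1 at 0 h (5.65 against 3.58), 1 h (6.89 against 4.26), 2 h (7.05 against 4.88), 4 h (10.2 against 6.51) and 6 h (9.54 against 5.88). In Ctrl the order of the replicates was mixed.

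Signs turned in uncalled values: Zbp1 at 6 h (0.016) and Eif2ak2 in DI at 6 h (-0.053) with TMM from abundant genes, and Eif2ak2 in DI at 6 h (-0.023) without the 3 DI libraries. Left-out libraries gave ranges across 0 for Ddx58 (-1.78 to 0.19 at 0 h, -0.27 to 0.26 at 1 h), Eif2ak2 at 0 h (-0.76 to 0.27) and Zbp1 at 6 h (-0.34 to 0.087) between treatments, and, for the rise in DI, for Eif2ak2 (-0.017 to 1.01 at 1 h, -0.32 to 0.71 at 6 h), Dhx58 at 1 h (-0.16 to 0.45), Ddx58 at 2 h (-0.11 to 1.86) and Aim2 at 2 h (-0.0065 to 1.73). Of 28 response differences, 18 changed sign somewhere.

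TMM from abundant genes changed the higher and lower calls over all genes from 366 and 640 to 478 and 522 (treatment, 4 h), 559 and 954 to 702 and 786 (6 h), 973 and 330 to 797 and 512 (Ctrl, 2 h), 1572 and 1022 to 1198 and 1795 (4 h), 1626 and 1200 to 1271 and 1807 (6 h), 841 and 329 to 709 and 479 (DI, 2 h), 1215 and 783 to 988 and 1212 (4 h) and 1199 and 950 to 1010 and 1260 (6 h), and shifted the median of all genes by 0.121 for treatment at 6 h. The percentage of all genes called moved by over 1.5 times with only the compared groups, from 3.60 to 0.910% (treatment at 0 h), 6.24 to 3.08% (treatment at 2 h), 4.07 to 8.11% (Ctrl 1 h), 12.2 to 25.7% (Ctrl 2 h), 24.3 to 45.2% (Ctrl 4 h), 26.5 to 43.6% (Ctrl 6 h), 3.59 to 1.83% (DI 1 h), 11 to 5.62% (DI 2 h), 18.7 to 9.90% (DI 4 h), 20.2 to 11.6% (DI 6 h), 0.253 to 0.103% (response at 1 h), 0.356 to 0.0750% (response at 2 h), 0.760 to 0.356% (response at 4 h), 1.55 to 0.675% (response at 6 h). With the DESeq2 Wald test it moved from 3.60 to 5.69% (treatment at 0 h), 4.89 to 7.53% (treatment at 1 h), 6.24 to 9.97% (treatment at 2 h), 0.253 to 0.469% (response at 1 h), 0.356 to 1.16% (response at 2 h), 0.760 to 2.04% (response at 4 h), 1.55 to 3.14% (response at 6 h). On estimated molecules it moved from 3.60 to 6.94% (treatment at 0 h), 4.89 to 7.63% (treatment at 1 h), 4.07 to 7.57% (Ctrl 1 h), 12.2 to 23.5% (Ctrl 2 h), with no filter from 0.253 to 0.403% (response at 1 h), 0.356 to 0.746% (response at 2 h), 0.760 to 1.23% (response at 4 h), without the 3 DI libraries from 3.60 to 5.85% (treatment at 0 h), 4.89 to 7.65% (treatment at 1 h), and with limma-voom from 0.253 to 0.141% (response at 1 h). Depth limits Tmem173 and Aim2 in DI most, with few reads and fewer estimated molecules.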

Other observations

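Cgas and Mavs, which stand upstream and downstream of members of the set and were not called between treatments, changed over time in Ctrl cells. Cgas, which makes the messenger that switches on STING, rose from 49.8 CPM at 0 h to 308 at 1 h (6.18-fold higher, edgeR adjusted p = 2.14e-06) and 324 at 2 h (7.01e-07), and was 150.1 at 4 h (0.000361) and 109.6 at 6 h (0.0073). Its highest mean was thus at 2 h, whereas that of Tmem173 was at 4 h, and these peaks were not compared by a test. The 6 h call was lost without replicate 2 of Ctrl 0 h (1.11, 0.0617) and without replicate 1 of Ctrl 6 h (0.82, 0.138), with the log2 value and the adjusted p in parentheses.

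Mavs, the adaptor of MDA5 and RIG-I, had 13.0 CPM at 0 h, 2.80 at 4 h and 4.45 at 6 h in Ctrl, so it fell while both sensors rose (log2 -2.21 ± 0.58, edgeR adjusted p = 0.00602 at 4 h, and -1.56 ± 0.57, 0.0444 at 6 h). The call at 4 h was lost without replicate 2 of Ctrl 0 h (-1.95, 0.0625) and without replicate 2 of Ctrl 4 h (-1.95, 0.0962). The call at 6 h was lost with no filter on low counts (-1.58, 0.0734), with limma-voom (-1.73, 0.0554), without replicate 1 of Ctrl 0 h (-1.78, 0.0767), without replicate 2 of Ctrl 0 h (-1.30, 0.238) and without replicate 2 of Ctrl 6 h (-0.93, 0.393). These levels rest on few reads.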
